A study of Mus musculus with 2 samples.

Results

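The transcripts of 10 enzymes of muscle energy supply were followed across the steps of muscle differentiation. They are the creatine kinases Ckm and Ckb, the enolases Eno3 and Eno1, the phosphoglycerate mutases Pgam2 and Pgam1, the lactate dehydrogenases Ldha and Ldhb, muscle glycogen phosphorylase Pygm and muscle fructose-bisphosphatase Fbp2, and make up 10 of the 26100 genes listed in both deposited matrices. They were picked by symbol, with earlier results of these data known. Droplet-based single-cell RNA libraries (10x Genomics), 1 for each of 2 mouse cultures, were counted by unique molecular identifiers (UMIs), the short tags that make each captured transcript countable. The MEF culture was mouse embryonic fibroblasts in MEF media. The iMPC culture, induced myogenic progenitor cells, came from such fibroblasts through the muscle regulator MyoD together with a treatment written F/R/C in the labels, and was kept in medium containing F/R/C. The series describes the iMPC culture as a single stable clone, and both cultures carried the genotype Tg:Pax7-nGFP/C57BL6;DBA2, a Pax7 reporter. The labels give no age for either culture.

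The iMPC cells were divided by 4 genes that are not among the 10. Cells with at least 1 Pax7 UMI and 0 Myog UMIs form the Pax7 class (Pax7 marks muscle stem cells), which held 2180 cells. Cells with at least 5 UMIs of Myog, a regulator of differentiation, and at most 9 of Myh3 form the Myog class, with 1182 cells. Cells with at least 10 UMIs of the embryonic myosin Myh3 and 0 of Myh4 form the Myh3 class, with 1054 cells. Cells with at least 2 UMIs of the fast adult myosin Myh4 form the Myh4 class, with 720 cells. Of 9349 iMPC cells with at least 8036 UMIs and at most 20% mitochondrial UMIs, 4233 (45.3%) fell in no class, and 20 cells met 2 class rules at once. The 6043 MEF cells were taken whole. With 1 library per culture, and classes cut from the same library, there was no replicate and no test was made. All intervals are for counting error only, and are exact 95% intervals except for differences between shares. Those combine the limits of both shares and are wider. Levels are CPM, the UMIs of a gene scaled to the total of the class. The assay counts a molecule once at its 3′ end, so a level carries no length correction, and genes may still differ in how well they are captured.

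Median depth differed between the classes, at 18729.5 UMIs per cell in the Pax7 class, 21309.5 in the Myog class, 29882.5 in the Myh3 class, 47026.5 in the Myh4 class and 18929 in MEF. The median mitochondrial share was 3.47%, 3.58%, 4.58% and 7.26% in the 4 iMPC classes and 5.78% in MEF. The summed level of 7 myocyte markers was 96.1 CPM in MEF, 1071 CPM in the Pax7 class, 6252 CPM in the Myog class, 30046 CPM in the Myh3 class and 49999 CPM in the Myh4 class. The 8 fibroblast markers summed to 6411 CPM in MEF, 1351 CPM in the Pax7 class and 148 CPM in the Myh4 class. The 3 endothelial and 3 red cell markers each summed to under 1 CPM in MEF and the 4 iMPC classes. The 3 immune markers summed to between 1.22 and 3.49 CPM in these, and the 4 glial markers to between 1.71 and 2.45 CPM. The 3 epithelial markers summed to 14.6 CPM in MEF and to at most 0.435 CPM in the classes. The 7 satellite cell markers summed to 255 CPM in MEF and to 553, 289.5, 245 and 259.5 CPM from the Pax7 to the Myh4 class, and the 5 committed myoblast markers to 152 CPM in MEF and to 324, 4867, 6377 and 2372 CPM. The 4 neuron markers summed to 48.7 CPM in MEF and to 249, 131, 82.7 and 59.1 CPM in the classes, and their part in the results was not tested. The fibroblast, myocyte and satellite cell lists were thus highest in MEF, the Myh4 class and the Pax7 class, while the committed myoblast list was highest in the Myh3 class and not in the Myog class. The satellite cell, committed myoblast and myocyte lists contain Pax7, Myog and Myh3, which also define the classes. Their sums are thus partly fixed by the class rules and are no independent check of the classes. Barcodes were shared by 16 kept cells of the 2 libraries.

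Muscle fibres meet sudden energy demand first from creatine phosphate, through creatine kinase, and then from glycogen and glucose, through glycogen phosphorylase and glycolysis. Several of these enzymes exist as isoforms from separate genes, and skeletal muscle is known for replacing the widespread isoform (CKB, ENO1, PGAM1) by a muscle form (CKM, ENO3, PGAM2) as it matures. Lactate dehydrogenase is a mixture of A and B subunits, of which the A subunit predominates in fast skeletal muscle and the B subunit in heart. Ldha is, however, expressed in many cell types.

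Genes of this kind are known targets of muscle regulators that bind the E-box, the letters CANNTG. The 250 bases upstream of the RefSeq start of the 5 muscle forms with the steepest differences, and of Ckb, are shown so that the presence of this word can be compared with the levels that follow. All 10 genes had an entry, with 3 starts for Eno1 and 2 for Ldha. The sequences are from RefSeq on GRCm38.p6, each 5′ to 3′ on the strand of the gene, with every CANNTG match in capitals. Ckm lies at chr7:19410844-19411093 on the plus strand, Eno3 at chr11:70656926-70657175 on the plus strand and Pgam2 at chr11:5803797-5804046 on the minus strand. Pygm lies at chr19:6384158-6384407 on the plus strand, Fbp2 at chr13:62858401-62858650 on the minus strand and Ckb at chr12:111672339-111672588 on the minus strand.
Ckm: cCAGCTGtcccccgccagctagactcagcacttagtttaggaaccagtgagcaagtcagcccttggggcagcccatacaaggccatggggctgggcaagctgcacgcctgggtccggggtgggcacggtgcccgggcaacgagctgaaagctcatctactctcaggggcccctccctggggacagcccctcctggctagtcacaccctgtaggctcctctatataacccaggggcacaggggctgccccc
Eno3: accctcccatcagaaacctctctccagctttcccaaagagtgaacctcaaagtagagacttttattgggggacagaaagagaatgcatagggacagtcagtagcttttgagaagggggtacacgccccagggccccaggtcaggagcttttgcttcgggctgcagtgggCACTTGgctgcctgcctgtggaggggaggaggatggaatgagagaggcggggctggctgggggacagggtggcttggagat
Pgam2: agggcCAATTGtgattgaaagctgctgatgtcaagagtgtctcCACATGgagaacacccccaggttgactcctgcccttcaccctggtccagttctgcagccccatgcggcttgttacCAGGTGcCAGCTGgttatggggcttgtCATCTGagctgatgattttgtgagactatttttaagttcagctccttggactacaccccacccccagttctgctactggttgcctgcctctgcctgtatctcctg
Pygm: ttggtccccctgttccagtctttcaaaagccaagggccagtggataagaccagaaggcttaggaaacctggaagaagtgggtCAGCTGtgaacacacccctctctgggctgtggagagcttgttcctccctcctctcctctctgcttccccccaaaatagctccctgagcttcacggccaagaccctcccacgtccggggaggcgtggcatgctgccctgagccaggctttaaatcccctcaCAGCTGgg
Fbp2: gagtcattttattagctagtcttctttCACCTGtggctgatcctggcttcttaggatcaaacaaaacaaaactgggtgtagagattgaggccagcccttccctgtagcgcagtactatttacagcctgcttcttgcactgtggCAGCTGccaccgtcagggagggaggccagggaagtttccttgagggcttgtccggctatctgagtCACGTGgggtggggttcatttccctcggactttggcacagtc
Ckb: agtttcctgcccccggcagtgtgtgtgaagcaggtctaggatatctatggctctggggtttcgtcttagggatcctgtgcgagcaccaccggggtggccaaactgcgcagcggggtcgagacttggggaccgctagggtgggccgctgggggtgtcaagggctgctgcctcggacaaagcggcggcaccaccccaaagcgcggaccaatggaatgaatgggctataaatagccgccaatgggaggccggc

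CANNTG, which reads the same way on both strands, occurred 5 times in the Pgam2 window, 3 times in that of Fbp2, 2 times in that of Pygm and 1 time each in those of Ckm and Eno3. It was not in the Ckb window. Among the genes whose windows are not shown, it occurred 2 times at the first Eno1 start and 2 times at each Ldha start. It was not at the other Eno1 starts or upstream of Pgam1 and Ldhb. Of 32851 upstream windows of the same length, 66.2% held it, so its presence alone separates few genes. The form CAGCTG, a subset of CANNTG, was in 13.0% of all windows. It occurred 2 times upstream of Pygm, with 2 and 162 bases between the match and the start, and 1 time each upstream of Ckm (243 bases), Pgam2 (119 bases) and Fbp2 (101 bases). None of the windows of Eno3, Ckb, Eno1, Pgam1, Ldha and Ldhb held CAGCTG. The A/T-rich MEF2 motif, searched on both strands, was in 2.92% of all windows and occurred 1 time each upstream of Pgam2 and Ckb, where the Ckb match overlaps the only TATAAA found among the 10 genes (12.4% of all windows hold TATAAA). The first Ldha start had 2 matches of another E-box form, CACGTG. A match is a string of letters and not a shown binding site, and the windows say nothing of elements outside them. The Ckm start used by RefSeq lies downstream of the start of the gene in GENCODE M21.

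The first question was how the levels of the 10 genes differed between stem-like and differentiated cells. In the Myh4 class against the Pax7 class, 5 of the 10 genes were higher by at least 2-fold (Ckm, Eno3, Pgam2, Pygm and Fbp2), against 12.6% of the 8161 genes that reached 10 CPM in the higher of the classes. Another 3 (Eno1, Pgam1 and Ldhb) were lower by at least 2-fold, where 30.8% of the genes were, and Ldha and Ckb differed by less. Ckm, Pgam2, Pygm and Fbp2 reached 10 CPM only through the Myh4 class, so they had to differ to be counted. The median log2 ratio was 5.40 over the 6 muscle forms, -1.11 over the 4 other forms and -0.46 over all genes tested. Scaling classes by the median gene ratio, not by their totals, raised every ratio by the size of that last value: 5 members were then higher and only Ldhb was lower by 2-fold.

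**Figure D1:**
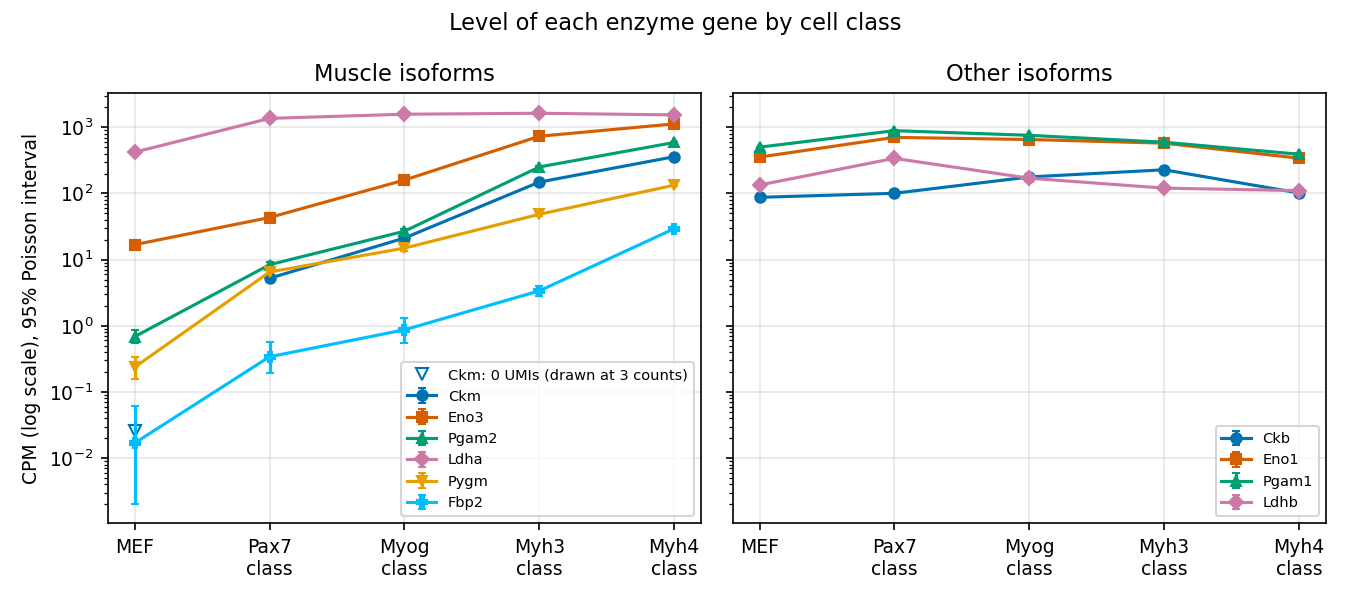
CPM of each gene (log axis) in MEF cells and the 4 iMPC classes, with exact 95% Poisson intervals; left, muscle forms, right, other forms. The muscle forms other than Ldha differ by 4.36 to 6.43 on the log2 scale between the Pax7 and Myh4 classes, while Ldha and the other forms stay within 1.62.

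Creatine kinase regenerates ATP from creatine phosphate. Ckm, its muscle form (ENSMUSG00000030399, chromosome 7, 19404776 to 19422841), had 0 UMIs in MEF, where 3 counts would be 0.0254 CPM. It stood at 5.22 CPM in the Pax7 class, 21.2 CPM in the Myog class, 148 CPM in the Myh3 class and 359 CPM in the Myh4 class. From the Pax7 class on, the level was higher at each step, with no overlap of intervals. In the Myog class the median cell held 0 Ckm UMIs and the highest held 33. The Myh4 class was 68.7-fold above the Pax7 class (log2 ratio 6.10, interval 5.91 to 6.30, and 8.02 with free RNA subtracted) and 2.42-fold above the Myh3 class (1.27, 1.23 to 1.32). With 3 counts in place of 0 in MEF, the Myh4 class was 14123-fold higher (log2 ratio 13.79). The lower limit of the exact interval, from the 0 itself, was a log2 ratio of 13.49.

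Ckb, the form known from brain and many other tissues (ENSMUSG00000001270, chromosome 12, 111669361 to 111672338), followed another course. It stood at 87.3 CPM in MEF, 100.4 CPM in the Pax7 class, 177 CPM in the Myog class, 228 CPM in the Myh3 class and 101.7 CPM in the Myh4 class. Ckb was therefore highest in the middle of the series: the Myh3 class was 2.27-fold above the Pax7 class (log2 ratio 1.18, 1.13 to 1.23), and the Myh4 class was 2.24-fold below the Myh3 class (-1.16, -1.22 to -1.11). The Pax7 and Myh4 classes were nearly equal, at a log2 ratio of 0.02 (-0.04 to 0.08). The summed level of 4 smooth muscle markers had the same order, at 402 CPM, 736 CPM, 1397 CPM and 327 CPM from the Pax7 to the Myh4 class. Most of it was Acta2 (308, 709, 1328 and 294 CPM), a gene that developing skeletal muscle also expresses. Tagln stood at 90.9, 26.3, 67.5 and 32.3 CPM, and Myh11 and Cnn1 were under 2 CPM in each. Its part in the Ckb values was not tested.

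The share of Ckm in the sum of Ckm and Ckb was 0% in MEF (upper limit 0.0358%), 4.95% in the Pax7 class, 10.7% in the Myog class, 39.5% in the Myh3 class and 77.9% in the Myh4 class. The difference between the Myh4 and Pax7 classes was 73.0 percentage points (71.7 to 74.2). The step from the Myog to the Myh3 class (28.8 points, 27.1 to 30.5) came while both genes were higher in the later class. The step from the Myh3 to the Myh4 class (38.4 points, 37.0 to 39.9) came with Ckm higher and Ckb lower. Of the mitochondrial creatine kinases, Ckmt2, the form of striated muscle, stood at 0.545, 2.35, 11.8 and 53.2 CPM from the Pax7 to the Myh4 class and had 0 UMIs in MEF. With Ckmt2 counted in the sum, the Ckm share in the Myh4 class was 69.8%. Ckmt1 had at most 2 UMIs in any iMPC class.

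**Figure D2:**
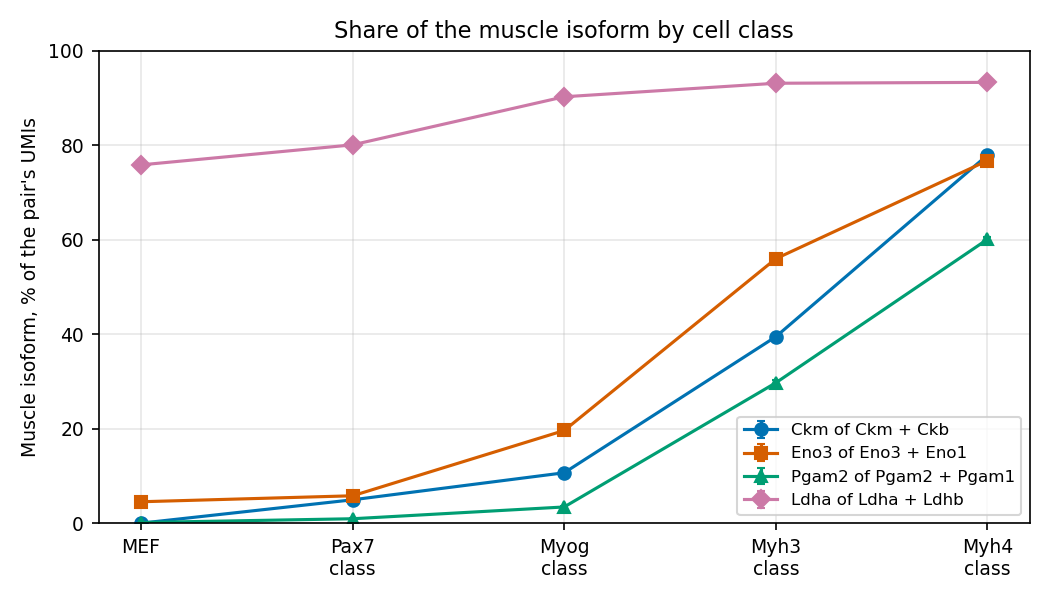
UMIs of the muscle form as a percentage of the UMIs of its pair in MEF cells and the 4 iMPC classes, with exact 95% binomial intervals (mostly smaller than the symbols). The Ckm, Eno3 and Pgam2 shares lie at or under 5.80% in MEF and the Pax7 class and between 60.1% and 77.9% in the Myh4 class, and the Ldha share starts at 75.8%.

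Enolase makes phosphoenolpyruvate, the direct precursor of pyruvate in glycolysis. Eno3, its muscle form (ENSMUSG00000060600, chromosome 11, 70657202 to 70662513), stood at 16.8 CPM in MEF, 43.3 CPM in the Pax7 class, 159 CPM in the Myog class, 731 CPM in the Myh3 class and 1125 CPM in the Myh4 class. Eno3 was the only one of the steeply differing muscle forms with a clear level in MEF, where 17.1% of cells held a UMI of it. Its log2 ratio was 4.70 between the Myh4 and Pax7 classes (4.63 to 4.77) and 0.62 between the Myh4 and Myh3 classes (0.60 to 0.64), so most of its difference lay before the Myh4 class. Per cell, the Myh4 class held a median of 53.5 Eno3 UMIs (quartiles 33 and 77).

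Eno1, the widespread enolase (ENSMUSG00000063524, chromosome 4, 150236721 to 150248879), stood at 354 CPM in MEF and at 703, 653, 575 and 341 CPM from the Pax7 to the Myh4 class. The Myh4 class was 2.06-fold below the Pax7 class (log2 ratio -1.04, -1.07 to -1.01), which is just past the 2-fold line. The mean number of Eno1 UMIs per cell was 14.2 in the Pax7 class and 17.4 in the Myh4 class, so the lower CPM is relative to the larger total of the Myh4 class. The Eno3 share of the pair was 4.53% in MEF, 5.80% in the Pax7 class, 19.6% in the Myog class, 56.0% in the Myh3 class and 76.7% in the Myh4 class. The difference between the Myh4 and Pax7 classes was 70.9 points (70.3 to 71.6), and the pair was the first to pass an equal split, in the Myh3 class. Eno1b, a near copy of Eno1 with which reads could be confused, held between 1.01% and 1.32% of the sum with Eno1 in MEF and the 4 classes. The neuronal enolase Eno2 was at most 6.78 CPM in these.

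Phosphoglycerate mutase carries out the step before enolase. Pgam2, the muscle form (ENSMUSG00000020475, chromosome 11, 5801640 to 5803733), stood at 0.686 CPM in MEF, 8.38 CPM in the Pax7 class, 26.8 CPM in the Myog class, 251 CPM in the Myh3 class and 589 CPM in the Myh4 class. Its log2 ratio between the Myh4 and Pax7 classes was 6.13 (5.99 to 6.29), and 8.64 with free RNA subtracted. In the Myog class the sum rested on few cells: the median cell held 0 UMIs and the highest held 89. From the Myog to the Myh3 class Pgam2 was 9.37-fold higher (log2 ratio 3.23, 3.12 to 3.34), a larger step than that of Ckm (7.01-fold) or Eno3 (4.59-fold).

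Pgam1, the widespread form (ENSMUSG00000011752, chromosome 19, 41911923 to 41918660), stood at 500.2 CPM in MEF and at 888, 756, 595 and 391 CPM from the Pax7 to the Myh4 class. The Myh4 class was 2.27-fold below the Pax7 class (log2 ratio -1.18, -1.21 to -1.16), while the mean was 17.9 UMIs per cell in the Pax7 class and 19.97 in the Myh4 class. The Pgam2 share was 0.137% in MEF, 0.935% in the Pax7 class, 3.43% in the Myog class, 29.7% in the Myh3 class and 60.1% in the Myh4 class. The pair differed by 59.1 points between the Myh4 and Pax7 classes (58.5 to 59.7). In the Myh4 class this was the lowest muscle-form share of the 4 pairs.

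Lactate dehydrogenase interconverts pyruvate and lactate. Ldha (ENSMUSG00000063229, chromosome 7, 46841475 to 46855627) stood at 421 CPM in MEF, 1363 CPM in the Pax7 class, 1574 CPM in the Myog class, 1627 CPM in the Myh3 class and 1539 CPM in the Myh4 class. Its difference lay between the cultures: the Pax7 class was 3.24-fold above MEF (log2 ratio 1.70, 1.68 to 1.71), and the Myh4 and Pax7 classes differed by a log2 ratio of only 0.18 (0.16 to 0.19). Ldhb (ENSMUSG00000030246, chromosome 6, 142490249 to 142507957) stood at 134 CPM in MEF and at 339, 169.9, 120.2 and 110.3 CPM from the Pax7 to the Myh4 class. It was lower in the Myh4 than in the Pax7 class by a log2 ratio of -1.62 (-1.67 to -1.57), and its mean per cell was 6.84 UMIs against 5.63. Ldhb was thus the only one of the 4 other forms whose UMIs per cell were also fewer in the Myh4 class.

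The Ldha share was 75.8% in MEF, 80.1% in the Pax7 class, 90.3% in the Myog class, 93.1% in the Myh3 class and 93.3% in the Myh4 class. The pair did not switch, since Ldha held most of it throughout, and the share differed by 13.2 points (12.7 to 13.7) between the Myh4 and Pax7 classes. Most of that lay between the Pax7 and Myog classes (10.2 points, 9.62 to 10.7). The Myh4 and Myh3 classes differed by 0.188 points, with an interval of -0.214 to 0.590.

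Glycogen phosphorylase releases glucose units from glycogen, and its muscle form is deficient in McArdle disease. Pygm (ENSMUSG00000032648, chromosome 19, 6384399 to 6398459) stood at 0.237 CPM in MEF, 6.50 CPM in the Pax7 class, 14.9 CPM in the Myog class, 48.4 CPM in the Myh3 class and 133 CPM in the Myh4 class. The log2 ratio was 4.36 between the Myh4 and Pax7 classes (4.19 to 4.54) and 1.46 between the Myh4 and Myh3 classes (1.38 to 1.54). The brain form Pygb stood at 28.8 CPM in MEF and at 6.04, 2.75, 1.30 and 1.55 CPM from the Pax7 to the Myh4 class, and the liver form Pygl at 0.686 CPM in MEF and 15.2, 3.73, 4.75 and 7.43 CPM in the classes. Pygm made up 0.798% of the 3 phosphorylases in MEF, 23.4% in the Pax7 class, 69.7% in the Myog class, 88.9% in the Myh3 class and 93.7% in the Myh4 class. Its share thus passed an equal split in the Myog class, a class earlier than that of Eno3, at a level of 14.9 CPM and with both other forms low.

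Fructose-bisphosphatase runs against glycolysis, and the muscle form is thought to serve the return of lactate carbon to glycogen. Fbp2 (ENSMUSG00000021456, chromosome 13, 62836877 to 62858422) was the least abundant of the 10 in each iMPC class, and had its largest step last. It had 2 UMIs in the whole MEF library and stood at 0.341 CPM in the Pax7 class, 0.869 CPM in the Myog class, 3.37 CPM in the Myh3 class and 29.3 CPM in the Myh4 class. The Myh4 class was 8.69-fold above the Myh3 class (log2 ratio 3.12, 2.84 to 3.41), the largest of the 10 differences between those classes. The log2 ratio to the Pax7 class was 6.43 (5.70 to 7.27), on 15 UMIs there, and 7.73 with free RNA subtracted. Fbp2 was uneven among Myh4-class cells: 37.1% held a UMI, the median cell held 0 and the highest held 39. At an equal 8036 UMIs per cell, 14.3% of the Myh4-class cells held one (11.8 to 17.1), 1.71% of the Myh3 class and 0.596% of the Pax7 class. The liver form Fbp1 had at most 1 UMI in MEF and in each class.

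Set side by side, 4 genes were higher by 2-fold or more at each of the 3 steps between neighbouring iMPC classes, with Fbp2 in place of Eno3 at the last. In the Myog class 4 of the 9 genes tested were higher than in the Pax7 class by 2-fold or more (Ckm, Eno3, Pgam2, Pygm), where 4.13% of genes were higher, and 0 were lower, where 9.41% were. Ldhb, 1.995-fold lower, lay just inside the 2-fold line. In the Myh3 class against the Myog class, 4 of 9 were higher (again Ckm, Eno3, Pgam2, Pygm), where 7.71% of genes were, and 0 were lower, where 9.72% were. Over both steps, from the Pax7 to the Myh3 class, 5 of 9 were higher (Ckb joined those 4), where 10.1% of genes were, and Ldhb was lower, where 22.2% were. In the comparisons with the Pax7 class, Ckm, Pgam2 and Pygm reached 10 CPM only through the later class and could be counted only if they were higher there, so these counts are not read against the share of all genes. In the Myh4 class against the Myh3 class, 4 of 10 were higher (Ckm, Pgam2, Pygm, Fbp2), where 4.66% of genes were, and Ckb was lower, where 4.7% were. Fbp2 reached 10 CPM there only through the Myh4 class. In the Pax7 class against MEF, 3 of the 6 genes tested were higher (Eno3, Ldha, Ldhb), where 14.8% of genes were, and 0 were lower, where 19.4% were. Eno1, with a log2 ratio of 0.99, and Pgam1, with 0.83, came close to the 2-fold line in that comparison.

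Low levels in the Pax7 class were set against RNA free in the droplets. As reference, 181 iMPC cells with 0 Pax7 and 0 Myog UMIs and at least 10 of the fibroblast gene Dcn were taken, with a median of 16804 UMIs. At an equal 8036 UMIs per cell, Ckm was found in 4.45% of Pax7-class cells and 5.52% of the Dcn-high cells, and Pgam2 in 5.73% and 6.08%. In CPM, Ckm stood at 5.22 and 7.18 and Pgam2 at 8.38 and 8.68. Neither gene was above the reference, so neither is read as expressed in the Pax7 class or as higher there than in MEF. The Ckm share of its pair was 4.94% in the Dcn-high cells and 4.95% in the Pax7 class. The Pgam2 share was 0.942% and 0.935%. These Pax7-class shares are likewise not read as higher than those of MEF. Eno3 was found in 25.3% of the Pax7-class cells (23.5 to 27.2) against 12.7% of the Dcn-high cells (8.23 to 18.5), and stood at 43.3 CPM against 17.7 CPM, so its level in the Pax7 class was above the reference. Pygm was found in 5.05% against 3.31%, with overlapping intervals (4.17 to 6.05 and 1.23 to 7.08), a difference not detectable with 181 reference cells. At this equal depth Fbp2 was found in 0 of them, with an upper limit of 2.02%. Without thinning they held 1 Fbp2 UMI, at 0.299 CPM (0.00757 to 1.67). The Pax7 class stood at 0.341 CPM (0.191 to 0.562), so no difference was detectable for Fbp2 either. Barcodes of 200 to 600 UMIs held a median of 430 UMIs. That amount of free RNA in each cell would give 3.86 CPM of Ckm, 6.92 CPM of Pgam2, 11.7 CPM of Eno3 and 1.42 CPM of Pygm over the summed Pax7 class. The Ckm and Pgam2 levels of the Pax7 class (intervals 4.57 to 5.95 CPM and 7.55 to 9.28 CPM) lay above that estimate, so it does not cover all of either level.

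Whether the isoforms replace each other within a cell was looked at in cells with at least 10 UMIs of a pair. In the Pax7 class the muscle form held under 20% of the pair in 94.8% of 1534 cells for enolase and 99.8% of 1725 cells for phosphoglycerate mutase. For creatine kinase only 70 cells (3.21%) of the Pax7 class held 10 UMIs of the pair, and no cell of the class held more than 3 of Ckm, so a low Ckm share in those cells was nearly fixed by the minimum and is not read. In the Myh3 class, 86.4% of 1018 cells held both enolases in a mixture of 20 to 80% Eno3, with a median of 54.5% and quartiles of 35.3% and 66.7%. Creatine kinase was the most spread there, on 508 cells (48.2% of the class). Over these cells the median Ckm share was 36.4% with quartiles of 10% and 60%. Of them, 34.3% were under 20% and 53.7% were mixed (20 to 80%). For phosphoglycerate mutase 48.6% of 938 cells were under 20% and 50.2% were mixed. For enolase 9.14% were under 20%. So in the Myh3 class mixed cells were the larger group for creatine kinase and phosphoglycerate mutase too. Cells with little of the muscle form were a larger part there than for enolase. At an equal 8036 UMIs, both forms were found in 90.6% of Myh3-class and 85.3% of Myh4-class cells for enolase, in 56.6% and 83.1% for phosphoglycerate mutase, and in 33.6% and 32.5% for creatine kinase.

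In the Myh4 class, 53.1% of 471 cells had over 80% Ckm, 40.3% of 693 cells over 80% Eno3 and 14.2% of 690 cells over 80% Pgam2. The median cell shares were 81.3% for Ckm, 77.1% for Eno3 and 60% for Pgam2. Under 20% of the muscle form were 4.25%, 1.59% and 6.09% of these cells. For creatine kinase the 471 cells were only 65.4% of the class. The class held a mean of 18.3 Ckm and 5.19 Ckb UMIs per cell, so the minimum of 10 UMIs favoured cells high in Ckm. The Ckm cell shares are therefore not read for the whole class. Mixed cells were thus common in both later classes. In the Myh4 class they were most common for Pgam2, at 79.7%. A doublet caller marked 1.47% of Pax7-class, 6.43% of Myog-class, 11.3% of Myh3-class and 7.50% of Myh4-class cells. The part of doublets and free RNA in single mixed cells was not tested.

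**Figure D3:**
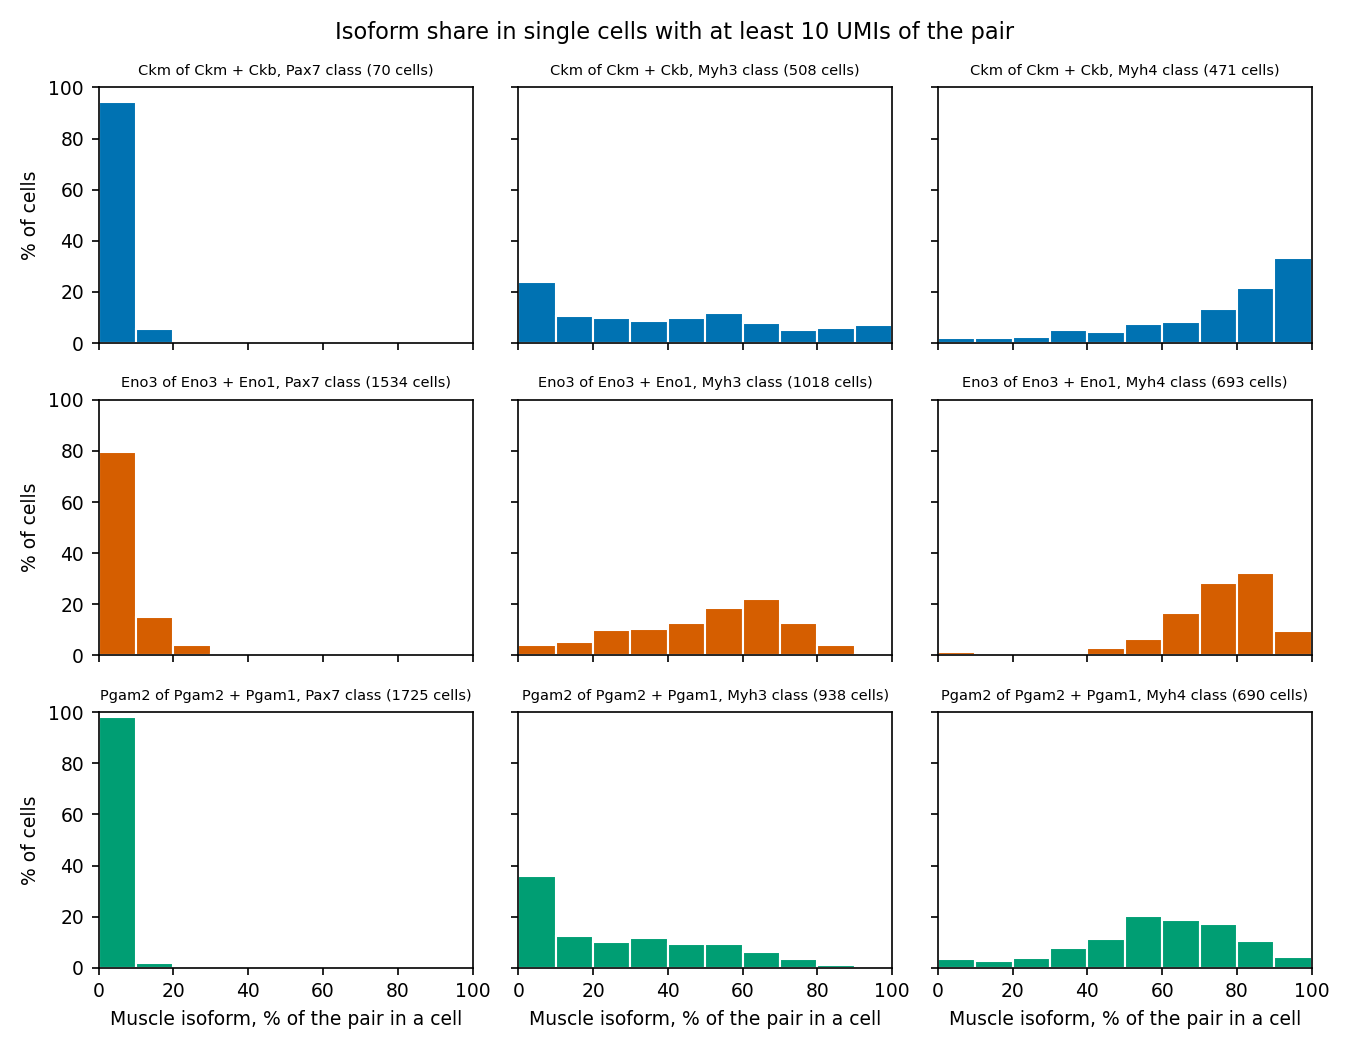
Histograms of the muscle-form share within single cells (x axis, % of the pair's UMIs, steps of 10; y axis, % of the cells with at least 10 UMIs of the pair) for 3 pairs in the Pax7, Myh3 and Myh4 classes. The Pax7 class is piled up near 0 (for creatine kinase on only 70 cells) and the Myh3 class is spread (its enolase cells peak at 60 to 70%). The Myh4 class lies to the right, least so for Pgam2. For creatine kinase the minimum of 10 UMIs favours Myh4-class cells high in Ckm.

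A finer order was obtained by thinning every iMPC cell to 8036 UMIs and grouping cells by their Myh3 UMIs, a description since Myh3 also defines 2 of the classes. The groups held 5402 cells with 0 Myh3 UMIs, 1794 with 1 to 2, 787 with 3 to 9, 1177 with 10 to 29 and 188 with 30 to 99, and 1 cell above that was left out. The Eno3 share was 6.72%, 12.4%, 50.03%, 67.9% and 74.5% over these groups. The Ckm share was 6.91%, 11.1%, 38.7%, 60.3% and 77.0%, and the Pgam2 share 1.06%, 2.85%, 25.2%, 49.0% and 55.2%. Each pair was higher in every further group, and for Eno3 and Ckm the largest step was that between 1 to 2 and 3 to 9 Myh3 UMIs. For Pgam2 the next step was slightly larger. The order Eno3, Ckm, Pgam2 held without overlap of intervals in the groups of 3 to 9 and 10 to 29. The order of Eno3 and Ckm in the last group was not resolved (intervals 72.6 to 76.2 and 73.9 to 79.9). Ckb stood at 118, 145, 210.0, 169 and 119.8 CPM, again highest in the middle at equal depth, and Ldhb at 309.7, 277, 135, 110.0 and 107 CPM.

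**Figure D4:**
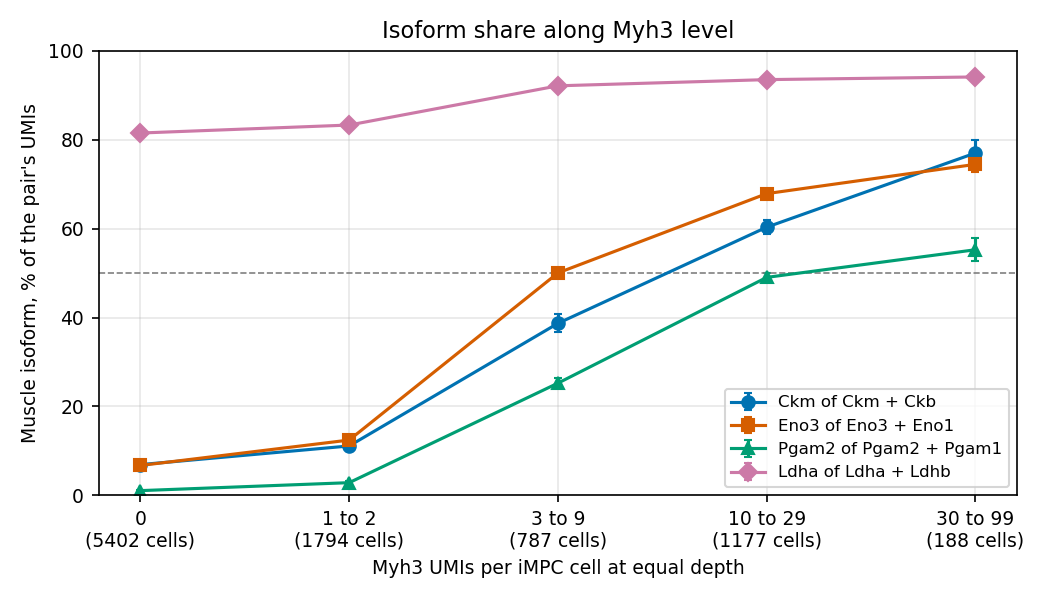
Muscle-form share of each pair (y axis, % of the pair's UMIs, exact 95% binomial intervals) in iMPC cells thinned to equal depth and grouped by Myh3 UMIs (x axis, with cell numbers); the dashed line marks 50%. Eno3 reaches the line at 3 to 9 Myh3 UMIs, Ckm passes it at 10 to 29 and Pgam2 at 30 to 99, while Ldha is above it throughout.

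Over the 9349 iMPC cells, the genes varying most like each of the 10 were listed among 3273 genes with at least 50 CPM in a class, by Pearson's r of log2 (UMIs per 10000 plus 1). The cells share a library and differ in depth, so the values are descriptive. Eno3 went with Mylpf, Tnni2 and Acta1 (r of 0.86 each), which encode contractile proteins of fast or developing muscle, and Pgam2 with Smpx (0.86), Myl1 (0.85) and Acta1 (0.85). Ckm went with Acta1 (0.72), Actn2 (0.71) and Pgam2 (0.71), and Pygm with Myh8 (0.69), Pgam2 (0.68) and Smpx (0.67). Fbp2, sparse as it was, went with the sarcomere genes Myoz1 (0.47) and Myot (0.41) and with Mustn1 (0.41).

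For Ldha and the other forms the highest values were lower than those of Ckm, Eno3, Pgam2 and Pygm, though that of Pgam1 was above that of Fbp2. Ckb went with Acta2 (0.35), Cdkn1c (0.31) and Dbn1 (0.27), and Ldhb with Mgp (0.42), Nsg1 (0.37) and Id3 (0.37). Eno1 went with Anxa2 (0.46), Pgam1 (0.40) and Ppia (0.40), and Pgam1 with Cfl1 (0.52), Actg1 (0.51) and Actb (0.49). Ldha went with Mif (0.46), Tpi1 (0.43) and Atp5b (0.41). Within pairs r was -0.47 for Pgam1 and Pgam2, -0.25 for Eno1 and Eno3, -0.01 for Ldha and Ldhb and 0.11 for Ckm and Ckb, while between Ckm, Eno3 and Pgam2 it lay between 0.70 and 0.80. The muscle forms of these 3 enzymes thus varied together across cells, and the 2 forms of an enzyme did not.

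Of 47 other genes of glucose, glycogen, lactate, bisphosphate and phosphagen metabolism, 35 reached 10 CPM in the Myh4 or Pax7 class. In the Myh4 class 14 were higher by 2-fold or more, 4 were lower and 17 lay between, with a median log2 ratio of 0.53. Over all genes tested, 12.6% were higher, 30.8% were lower and the median was -0.46. Of the 35, Slc2a4, Phkb, Ckmt2, Ampd1 and Adssl1 reached 10 CPM only through the Myh4 class and could be counted only if higher there, and Pygl and Pgm2 only through the Pax7 class, so these counts and the median are given as a description. In the phosphagen and adenylate list 6 of 8 were higher (Ckmt2, Gamt, Gatm, Ak1, Ampd1, Adssl1) and 0 lower. Ckmt2 had the largest ratio, at 6.61 (6.03 to 7.25), and Adssl1, an enzyme of the purine nucleotide cycle of muscle, stood at 154 CPM against 7.07 CPM (4.44, 4.28 to 4.61). In the glycogen list 4 of 8 were higher (Phkb, Ugp2, Gyg, Gys1), among them the glycogen primer Gyg at 162 CPM against 18.2 CPM (3.16, 3.05 to 3.26), and Pygl and Pgm2 were lower.

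In the glycolysis list 3 of 14 were higher (Slc2a4, Pfkm and Aldoa), 2 were lower and 9 lay between. Slc2a4 encodes the insulin-regulated glucose transporter and Pfkm the muscle form of phosphofructokinase. The genes lower were Slc2a3, a glucose transporter, at 11.4 CPM against 83.0 CPM (-2.86, -3.01 to -2.71), and Pfkl, the liver form of phosphofructokinase, at 55.9 CPM against 127 CPM (-1.18, -1.25 to -1.11). The lactate exporter Slc16a3 stood at 126 CPM against 198 CPM (-0.65, -0.70 to -0.60). The median log2 ratio of the glycolysis list was 0.05. That of the 6 muscle forms among the 10 genes was 5.40, but 4 of them reached 10 CPM only through the Myh4 class. The medians are therefore not read against each other.

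**Figure D5:**
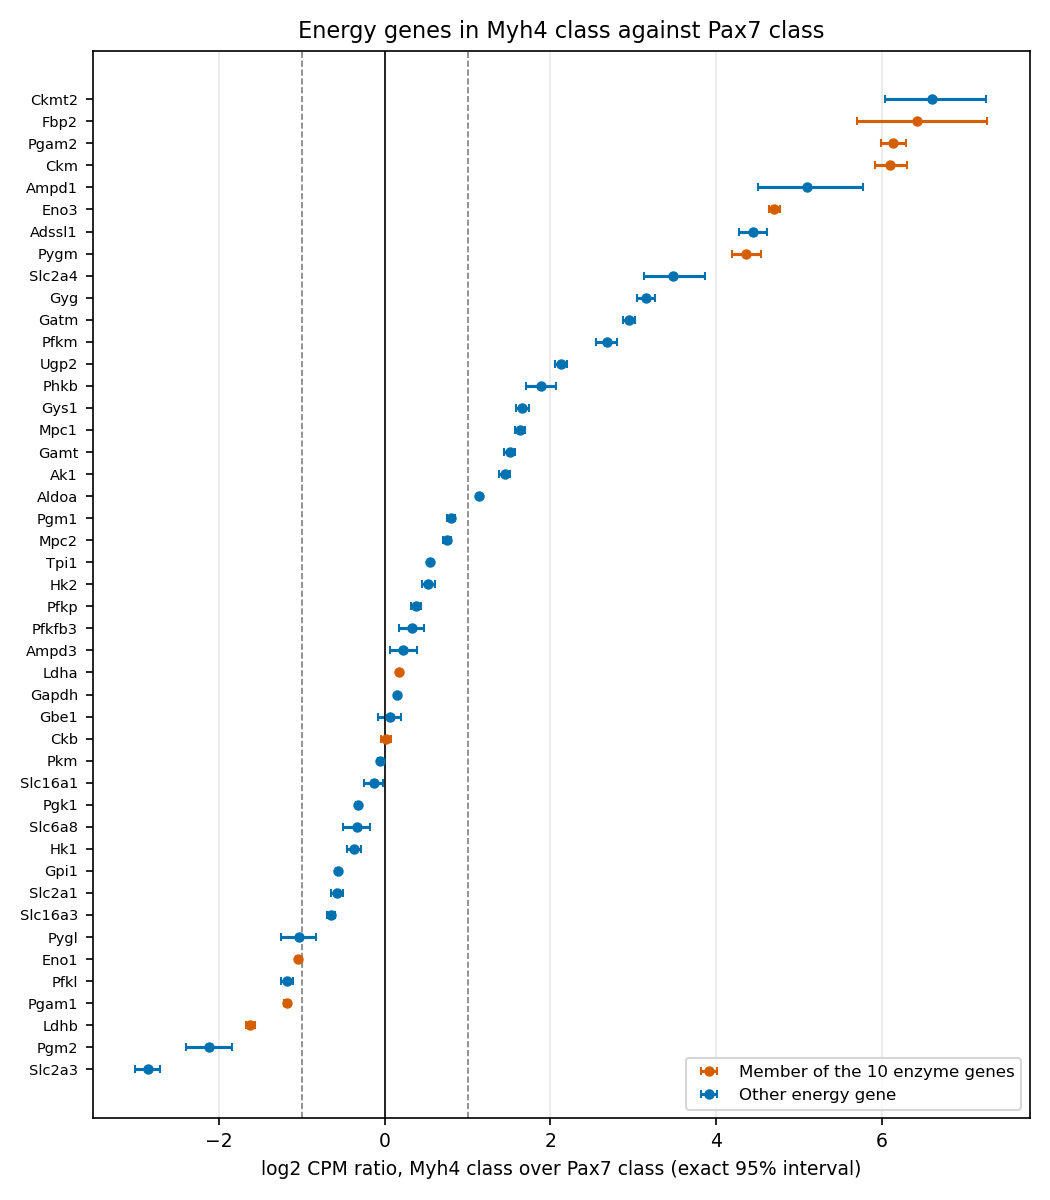
Log2 CPM ratio of the Myh4 class over the Pax7 class (x axis, exact 95% conditional intervals) for the 10 genes (orange) and the 35 other energy genes with at least 10 CPM in either class (blue); dashed lines mark 2-fold. The 5 steep muscle forms stand with Ckmt2, Ampd1 and Adssl1 at ratios above 4, and Ldha and Ckb lie near 0 among the glycolysis genes.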

How the data were processed

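Single-cell 3′ libraries were read as the deposited raw UMI counts per gene and barcode, which the authors made with Cell Ranger 4.0 on GRCm38.p6 per the submitters' processing notes (Seurat 3.2.3 is also named there). The deposited iMPC matrix lists every barcode (6794880) and the MEF matrix 6113, whose selection is not given in the sources used here. The protocol text of the MEF sample repeats that of the iMPC sample, and its own treatment label was used. The 26100 genes in both matrices were kept (the others held 0.209% of MEF UMIs). Positions are from GENCODE M21.

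Counts were summed per class, giving totals of 27612684 to 44019573 UMIs for the iMPC classes and 118069653 for MEF, and divided by the total (CPM). Intervals are exact Poisson for levels, conditional binomial for ratios and Clopper-Pearson for shares, at 95%. The interval of a difference combines the limits of both shares. A gene was counted at 2-fold with at least 10 CPM in the higher class. For equal depth cells were thinned to 8036 UMIs, which left out 661 MEF cells and 0 of the iMPC classes. Doublets were kept and Scrublet (scanpy 1.11.5) was an alternative. It marked 377 iMPC cells (4.03%) but only 2 MEF cells, so the 290 highest MEF scores were used. Alternatives covered filters, thresholds, scaling, free RNA and averaging. Scripts (Python 3.11.15, numpy 2.4.6, scipy 1.17.1, pandas 2.3.3) were tested on simulated data.

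The members, the lists of other genes and the alternatives were chosen with earlier results of these data known. Genes named are the 10 members, the other isoforms of their enzymes, the 3 largest ratios in each direction among the other energy genes with at least 50 CPM, and the 3 genes most correlated with each member. Slc2a4, Pfkm, Ampd1 and others named in counts were named after their values were seen. 1 gene of the lists is not reported here.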

Additional observations from a re-analysis of the deposited data

Results flagged for a closer look

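Muscle-form transcripts were found in iMPC barcodes of 200 to 600 UMIs, which lie far below the cell minimum of 8036 UMIs. These barcodes were in no class and served only as the source of the free RNA estimate and its subtraction. In these 48846 barcodes a count of 0 allows up to 0.141 CPM. Ckm stood at 181 CPM there and at 95.8 CPM in the kept iMPC cells, Eno3 at 550.4 CPM and 380 CPM (379.7), Pgam2 at 325 CPM and 161 CPM, Pygm at 66.9 CPM and 37.3 CPM, and Fbp2 at 9.74 CPM and 6.06 CPM. Ldha stood at 1039.8 CPM against 1475 CPM in the kept cells. The 5 steep muscle forms were thus higher in these barcodes than in the kept cells and Ldha was lower, as were Ckb, Eno1, Pgam1 and Ldhb. Where this RNA came from was not tested.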

How the results depend on the processing

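Each of 15 other settings was set against the values of the report, which gave 186 comparisons. No member's ratio past 2-fold and no share difference changed sign. All 4 share differences between the Myh4 and Pax7 classes stayed positive, at 70.7 to 77.4 points for Ckm, 68.6 to 75.4 for Eno3, 57.1 to 66.6 for Pgam2 and 13.0 to 13.8 for Ldha. They moved past their counting intervals as follows. With at most 10% mitochondrial UMIs (600 Myh4-class cells) the differences were 70.7 (Ckm), 70.04 (Eno3) and 58.1 points (Pgam2). Without Scrublet doublets they were 72.4 (Eno3) and 61.6 (Pgam2), as a mean over cells 68.6 (Eno3) and 57.1 (Pgam2), and with free RNA subtracted 76.6 (Ckm), 72.5 (Eno3) and 60.02 (Pgam2). With class thresholds on thinned cells (288 Myh4-class cells) they were 77.4, 75.4 and 66.6, and with stricter thresholds 76.8, 74.3 and 63.8, with 13.8 for Ldha. The count of members lower by 2-fold was 3, 2 at 10% mitochondrial UMIs and as a mean over cells, and 1 after scaling by the median of gene ratios. The count of members higher was 5, and 4 with a minimum of 50 CPM. The log2 ratio of Ckb, 0.02, turned to -0.02 as a mean over cells and -0.12 with the total without mitochondrial and ribosomal protein genes, and rose to 0.48 after scaling by the median of gene ratios, so its direction is not settled. The cause of these shifts was not tested.

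No paired analysis was possible because each culture had 1 library. Cells within a class share that library, and differences between libraries cannot be told apart from differences between cultures. Depth limits Fbp2 (15 UMIs in the Pax7 class, 2 in MEF) and Ckm in MEF (0 UMIs). MEF and iMPC barcodes were selected in different ways, and thinning to 8036 UMIs per cell left out MEF cells of lower depth.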
